A study of Mus musculus with 24 samples.

Results

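Liver tumours collected 48 h after a second dose of RMC-6272 (3 libraries) were compared with tumours collected 48 h after a second dose of sorafenib (2 libraries). The 5 libraries are part of the 24 RNA-seq libraries of the series, which fall into 10 groups. Genes were taken by name, and those with at least 1 FPKM (a level in fragments scaled for gene length and sequencing depth) in at least 2 of the 5 libraries were tested, 12016 of the 54403 entries kept. The choice used levels and no test between the treatments, but a gene could pass through 1 group alone. Such a gene leans towards that group by selection.

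All mice were of strain FVB/N and carried the Lap-tTA/Tet-O-MYC transgenes, in which a liver promoter drives the tetracycline transactivator in hepatocytes and a human MYC oncogene is on without doxycycline. MYC was switched on 4 weeks after birth in every group compared here, and weekly imaging of tumour volume began 4 to 5 weeks later. RMC-6272 mice received 10 mg/kg by intraperitoneal injection once a week. The sorafenib mice received 30 mg/kg a day by oral gavage. The second dose followed the first by 7 days in all groups. Vehicle mice were injected intraperitoneally, and their 3 libraries come from 24 h. No 48 h vehicle was analysed here, so vehicle values below are levels from another time and were not tested against either group. The compounds were given at different doses, by different routes and on different schedules, so the comparison is between 2 treatments and not between matched doses. The read totals recovered from single-read steps in the values were 33.7 to 37.2 M reads in the RMC-6272 libraries and 37.7 to 40.3 M reads in the sorafenib libraries. Whether libraries of a group come from separate mice or from pieces of 1 tumour is not stated. The p-values measure only the spread between libraries within groups, estimated over all 24 libraries and so mostly from groups not compared here. The codes in the descriptions begin with Cg11 or Cg14 for RMC-6272 at 48 h and with Cg9 or Cg10 for sorafenib at 48 h. What the codes stand for is not stated, and code and treatment cannot be told apart at 48 h.

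RMC-6272 is an inhibitor of the kinase complex mTORC1. The complex senses amino acids and growth factors and drives protein synthesis through 4E-BP1 and S6 kinase, as well as transcription programmes for amino acid, nucleotide and lipid synthesis. Sorafenib is an inhibitor of several kinases, including RAF, VEGF receptors and the PDGF receptor, used in hepatocellular carcinoma. MHC class II molecules show peptides from engulfed proteins to CD4 T cells and are made mainly by dendritic cells, B cells and macrophages, under the control of the transactivator CIITA. Their alpha and beta chains assemble on the invariant chain CD74, which cathepsin S trims and which H2-DM helps to exchange for peptide.

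Genes of MHC class II presentation had the highest values with RMC-6272 relative to sorafenib among 33 lists of pathways and processes. All 9 tested of the 11 listed were higher in every RMC-6272 library than in both sorafenib libraries, as were 16.1% of all genes. Ciita, H2-Eb1 and H2-DMb2 were under 1 FPKM in both sorafenib libraries. They passed the filter only through RMC-6272, so selection favoured this direction for them. Of the 9, H2-Ab1, Cd74 and H2-DMa rose past the threshold, as did 0.0749% of all genes. None of the 9 passed with the description code as a random block (adjusted p of 0.217, 0.260 and 0.279 for these 3 genes), and with the replicate block H2-Ab1 alone passed. The median difference over the 9 genes was 2.501 on the log2(FPKM + 1) scale, against -0.0555 over all genes tested. The threshold was a Benjamini-Hochberg adjusted p under 0.05 in limma, fitted on all 24 libraries. In bulk tumour tissue, fewer cells of a type and less RNA per cell cannot be told apart.

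Letters shared by class II promoters are shown because the genes below had higher values together and are known, as a class, for an X box and a Y box upstream of the start. Of the 11 listed class II genes, 8 have an entry in the RefSeq promoter table used here. H2-Ab1, Cd74 and Ciita have none, so H2-Ab1 and Cd74, which passed the threshold, could not be searched. The 250 bases before the start are from RefSeq on build GRCm38.p6, 5′ to 3′ on the strand of the gene. They are the letters of that build, and the sequence of the FVB/N mice was not examined. Capitals mark the Y box letters TGATTGG and the letters CTANNAACNGATG in the X box, both searched on both strands, with no overlap between them. The second run was read off the windows of H2-Eb1, H2-DMb1 and H2-DMb2, with N where the 3 differ, so that these genes hold it by construction.
H2-Eb1: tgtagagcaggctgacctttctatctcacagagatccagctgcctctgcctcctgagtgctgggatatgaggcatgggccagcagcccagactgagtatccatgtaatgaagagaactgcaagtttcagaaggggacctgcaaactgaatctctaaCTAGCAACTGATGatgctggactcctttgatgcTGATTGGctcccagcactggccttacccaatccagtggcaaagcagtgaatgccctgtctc
H2-DMb1: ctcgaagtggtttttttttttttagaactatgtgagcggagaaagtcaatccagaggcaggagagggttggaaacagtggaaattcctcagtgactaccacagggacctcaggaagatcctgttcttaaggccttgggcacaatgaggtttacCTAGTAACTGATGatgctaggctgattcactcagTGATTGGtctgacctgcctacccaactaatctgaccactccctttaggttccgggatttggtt
H2-DMb2: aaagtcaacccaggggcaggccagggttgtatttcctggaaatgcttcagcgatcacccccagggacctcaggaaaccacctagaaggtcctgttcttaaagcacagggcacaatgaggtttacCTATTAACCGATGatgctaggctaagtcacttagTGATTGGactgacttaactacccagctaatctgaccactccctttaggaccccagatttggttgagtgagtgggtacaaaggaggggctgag
H2-Aa: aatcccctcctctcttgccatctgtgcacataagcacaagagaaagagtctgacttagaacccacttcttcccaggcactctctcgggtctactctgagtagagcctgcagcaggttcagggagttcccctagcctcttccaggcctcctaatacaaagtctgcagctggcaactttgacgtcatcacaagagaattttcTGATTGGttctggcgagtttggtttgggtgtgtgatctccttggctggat

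The windows lie at chr17:34305617-34305866 on the plus strand for H2-Eb1, chr17:34152941-34153190 on the plus strand for H2-DMb1, chr17:34144999-34145248 on the plus strand for H2-DMb2 and chr17:34287824-34288073 on the minus strand for H2-Aa. In H2-Eb1 the X box letters begin 94 bases and the Y box letters 61 bases before the start. In H2-DMb1 they begin 97 and 63 bases before it, and in H2-DMb2 126 and 92 bases. H2-Aa holds the Y box letters 50 bases before its start and no match to the X box letters in this window. Of 32851 such windows in the RefSeq table, 7.23% hold the Y box letters, 0.0487% the X box letters and 0.00913% both, the last being these 3 genes. The windows of H2-Oa and H2-Ob, which did not pass the expression filter, hold the Y box letters, and those of H2-DMa and Ctss neither. No listed class II gene past the threshold was thus found to hold these letters. A match is a run of letters and not a measured binding site.

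Across all genes, 11 passed the threshold, 0.0915% of those tested. Of these, 9 rose (0.0749%) and 2 fell (0.0166%). At an unadjusted p under 0.05 were 1074 genes (8.94%), 622 higher (5.18%) and 452 lower (3.76%) with RMC-6272. The groups did not overlap in 4816 genes (40.1%). In 1932 genes (16.1%) all RMC-6272 libraries were above both sorafenib libraries, and in 2884 genes (24.0%) all were below. The adjusted calls rest on the fit and on single libraries. They numbered 1 when the doxycycline and RMC-4627 libraries were left out of the fit, 0 without RMC-6272 replicate 1, RMC-6272 replicate 2, sorafenib replicate 1 or sorafenib replicate 2, and 41 without RMC-6272 replicate 3. In the 4 fits with none, 424 to 951 genes had an unadjusted p under 0.05. Of the 9 class II genes, 0 to 6 passed in the alternative settings that kept the filter, and all 9 had an unadjusted p under 0.05 in each of them. The signs of the 11 genes were the same in all 154 values from 14 alternative settings, and 38 of those values were past the threshold.

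**Figure D1:**
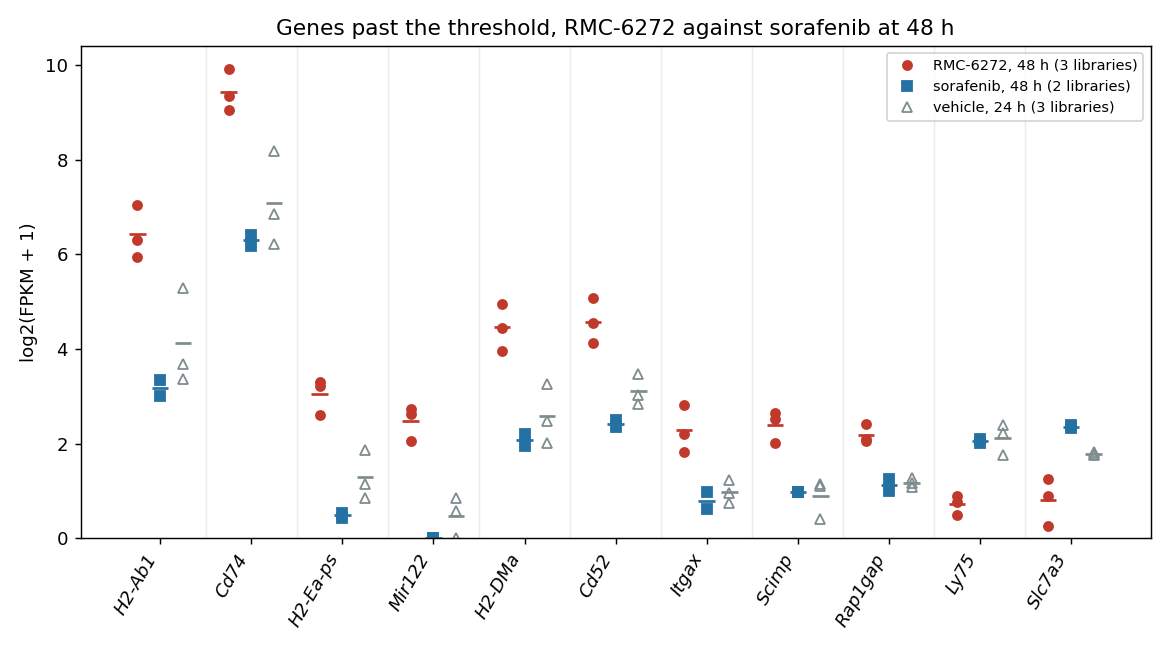
Levels of the 11 genes past the threshold as log2(FPKM + 1), with 1 point per library for RMC-6272 at 48 h, sorafenib at 48 h and vehicle at 24 h, and a bar at each group's mean. The RMC-6272 and sorafenib points do not overlap in any of the 11 genes, while the highest vehicle library lies between them for the class II genes.

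H2-Ab1, the beta chain of the I-A class II molecule, was at 130.4, 78.6 and 60.4 FPKM in the RMC-6272 libraries, against 9.11 and 7.04 FPKM in the sorafenib libraries. The lowest RMC-6272 library was far above both sorafenib libraries (log2 difference 3.26 ± 0.51 SE, adjusted p = 0.0394). Vehicle libraries at 24 h had 11.9, 38.3 and 9.31 FPKM, so 1 of them stood apart from the other two and none reached the RMC-6272 libraries. Cd74, the invariant chain, was at 965, 656 and 535 FPKM with RMC-6272, against 84.2 and 71.9 FPKM with sorafenib and 115, 292 and 73.4 FPKM with vehicle (log2 difference 3.15 ± 0.58 SE, adjusted p = 0.0493 for RMC-6272 against sorafenib). H2-DMa, the alpha chain of the peptide exchanger, was at 30.0, 20.8 and 14.6 FPKM with RMC-6272, against 3.60 and 2.88 FPKM with sorafenib (log2 difference 2.38 ± 0.43 SE, adjusted p = 0.0493). Replicate 3 had the lowest level among the RMC-6272 libraries for all of these and still exceeded both sorafenib libraries. H2-Ea-ps, a pseudogene of the I-E alpha chain that the rule for named genes leaves out, also rose, with 8.29, 8.90 and 5.08 FPKM against 0.439 and 0.350 FPKM (log2 difference 2.56 ± 0.42 SE, adjusted p = 0.0394).

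The other class II genes had values in the same direction that did not pass. H2-Aa, the I-A alpha chain, was at 33.7, 26.6 and 20.5 FPKM with RMC-6272 and 3.35 and 2.36 FPKM with sorafenib (log2 difference 2.84 ± 0.60 SE, adjusted p = 0.0993). H2-Eb1, the I-E beta chain whose promoter is printed above, was at 10.1, 7.53 and 4.26 FPKM with RMC-6272 and 0.933 and 0.487 FPKM with sorafenib (log2 difference 2.23 ± 0.45 SE, adjusted p = 0.09002). No library of either gene crossed between the groups. H2-DMb1 and H2-DMb2, near copies of each other between which reads could be split, had log2 differences of 2.51 ± 0.56 and 2.26 ± 0.47 SE (adjusted p = 0.138 and 0.0958). Ctss, which encodes cathepsin S, was at 326, 229.9 and 110.2 FPKM with RMC-6272 and 39.3 and 31.0 FPKM with sorafenib (log2 difference 2.501 ± 0.53 SE, adjusted p = 0.0959). Ciita, the transactivator, was at 2.27, 1.96 and 1.38 FPKM with RMC-6272 and 0.174 and 0.224 FPKM with sorafenib (log2 difference 1.25 ± 0.33 SE, adjusted p = 0.218). Its sorafenib values are low enough that the added 1 understates the difference on this scale. H2-Oa and H2-Ob, the chains of H2-O, an inhibitor of H2-DM, did not pass the filter.

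The other genes that rose include products of leukocytes and antigen-presenting cells. Cd52, a small glycoprotein on the surface of leukocytes, was at 22.3, 32.7 and 16.4 FPKM with RMC-6272, against 4.63 and 4.06 FPKM with sorafenib and 7.11, 10.2 and 6.12 FPKM with vehicle. It had the smallest adjusted p of all genes (log2 difference 2.16 ± 0.29 SE, adjusted p = 0.0112) and was past the threshold in 9 of the 14 alternative settings. Itgax, the integrin chain CD11c of dendritic cells and some macrophages, was at 6.04, 3.61 and 2.54 FPKM with RMC-6272, against 0.962 and 0.525 FPKM with sorafenib (log2 difference 1.49 ± 0.27 SE, adjusted p = 0.0493). Scimp, an adaptor of antigen-presenting cells that associates with class II molecules, was at 4.71, 5.29 and 3.06 FPKM against 0.977 and 0.956 FPKM (log2 difference 1.42 ± 0.26 SE, adjusted p = 0.0493). Rap1gap, which switches off the small GTPase RAP1, was at 4.37, 3.16 and 3.26 FPKM with RMC-6272, against 1.37 and 0.982 FPKM with sorafenib and 1.13, 1.42 and 1.24 FPKM with vehicle (log2 difference 1.07 ± 0.18 SE, adjusted p = 0.0394). Its antisense partner Rap1gapos, also given after its values were seen, had 6.67, 5.56 and 3.75 FPKM against 1.76 and 1.58 FPKM, and since use of strand in counting is not stated, reads of the pair cannot be told apart. Mir122, the microRNA gene typical of hepatocytes, was at 5.63, 5.21 and 3.15 FPKM with RMC-6272 and listed at 0 in both sorafenib libraries (adjusted p = 0.0447). Its levels correspond to only 13, 12 and 8 reads, and no fold is given. Itgax, Scimp, Mir122 and H2-Ea-ps were under 1 FPKM in both sorafenib libraries and passed the filter only through RMC-6272. Itgax is named as a list member. Scimp, Rap1gap and Mir122, like H2-Ea-ps above, fall outside the rule for named genes and are given after their values were seen, as all genes past the threshold.

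The 2 genes that fell had a mean of less than 5 FPKM in both groups. Ly75 was under 1 FPKM in every RMC-6272 library, and Slc7a3 in replicates 1 and 2. Both thus met the filter through sorafenib, so selection favoured this direction for them. Ly75 also falls outside the rule for named genes, and Slc7a3 is named as a list member. Ly75, the endocytic receptor DEC-205, was at 0.414, 0.866 and 0.689 FPKM with RMC-6272, against 3.29 and 3.06 FPKM with sorafenib and 4.26, 2.40 and 3.66 FPKM with vehicle (log2 difference -1.34 ± 0.24 SE, adjusted p = 0.0493). Slc7a3, a carrier of cationic amino acids, was at 0.189, 0.860 and 1.37 FPKM with RMC-6272, against 3.99 and 4.26 FPKM with sorafenib and 2.38, 2.53 and 2.41 FPKM with vehicle (log2 difference -1.56 ± 0.28 SE, adjusted p = 0.0493). In both genes the vehicle libraries were also all above the RMC-6272 libraries.

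**Figure D2:**
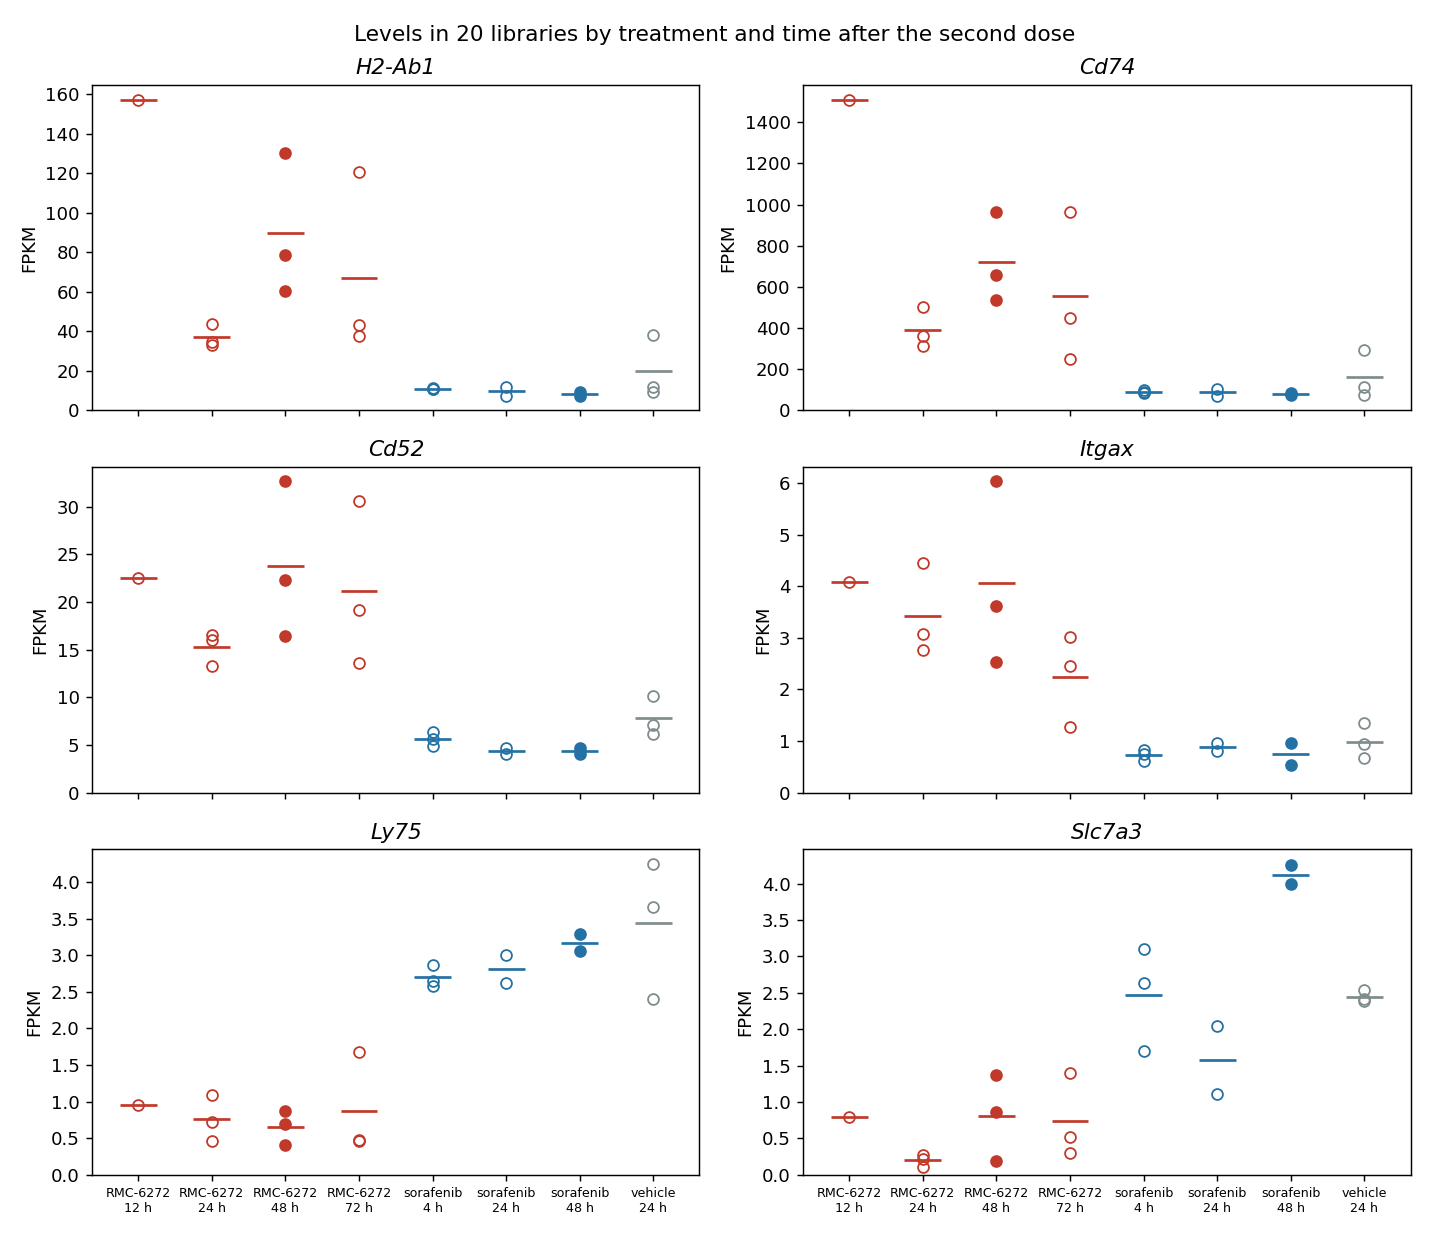
Levels in FPKM of H2-Ab1, Cd74, Cd52, Itgax, Ly75 and Slc7a3 in 20 libraries by treatment and hours after the second dose, with filled points at 48 h and a bar at each group's mean. H2-Ab1 lay at 32.9 to 157 FPKM in the 10 RMC-6272 libraries and at 7.04 to 38.3 FPKM in the 10 sorafenib and vehicle libraries.

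The levels of the 11 genes were also compared in the libraries from other times, 7 with RMC-6272 and 8 with sorafenib or vehicle, as a description with no test. In 4 of the 11, Cd52, Rap1gap, Scimp and Ly75, these sets did not overlap. Cd52 was at 13.3 to 30.6 FPKM with RMC-6272, against 4.01 to 10.2 FPKM with sorafenib or vehicle. Rap1gap was at 2.67 to 5.08 FPKM with RMC-6272 and 0.672 to 1.42 FPKM in the others, Scimp at 1.58 to 4.17 FPKM against 0.328 to 1.22 FPKM, and Ly75 at 0.460 to 1.68 FPKM against 2.40 to 4.26 FPKM. The other 7 overlapped. H2-Ab1 was at 32.9 to 157 FPKM with RMC-6272 and 7.25 to 38.3 FPKM in the others, Cd74 at 248 to 1509.8 FPKM against 69.7 to 292 FPKM, H2-DMa at 7.19 to 40.4 FPKM against 2.81 to 8.62 FPKM and H2-Ea-ps at 1.41 to 8.199 FPKM against 0.304 to 2.63 FPKM. Itgax was at 1.26 to 4.46 FPKM with RMC-6272 and 0.614 to 1.34 FPKM in the others, and Slc7a3 at 0.112 to 1.40 FPKM against 1.11 to 3.10 FPKM. Mir122 was at 0 to 3.42 FPKM with RMC-6272 and 0 to 0.862 FPKM in the others. A code beginning with Cg11 is shared by RMC-6272 replicates 1 and 2 at 48 h and by sorafenib replicate 2 at 4 h, where H2-Ab1 was at 130.4 and 78.6 FPKM, against 11.003 FPKM. A code beginning with Cg9 is shared by RMC-6272 replicate 3 at 72 h, with 37.8 FPKM, and by sorafenib replicate 1 at 48 h and both sorafenib replicates at 24 h, with 9.11, 7.25 and 11.8 FPKM. Within Cg9, Ciita was at 0.155 FPKM with RMC-6272, against 0.174, 0.170 and 0.303 FPKM with sorafenib. Mir122 was listed at 0 with RMC-6272 there, against 0, 0.862 and 0.834 FPKM with sorafenib. In that RMC-6272 library 50.4% of the low values came out as whole reads, against 98.4% to 98.7% in the other RMC-6272 libraries, and without it 5 of the 11 did not overlap, Mir122 joining the 4. Within each of these 2 codes, the RMC-6272 and sorafenib libraries were collected at different times, so these values do not separate treatment from time.

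Of the markers of cell types other than hepatocytes, Itgax alone passed the threshold. The summed level of 19 macrophage markers was 2589.8, 2231 and 847 FPKM with RMC-6272, against 1006 and 794 FPKM with sorafenib and 765, 961 and 627 FPKM with vehicle. The sum in RMC-6272 replicate 3 lay within the range of the sorafenib libraries. The sum rests mainly on the abundant genes Lyz2, C1qa, C1qb, C1qc and Cd5l, and Csf1r, Mpeg1, Trem2, Gpnmb and Fcgr1 were above both sorafenib libraries in replicate 3 too. Of the 19 markers 7 were higher and 2 lower without overlap, where 16.1% of all genes were higher and 24.0% lower, and Cd163 and Itgam were under 1 FPKM in all 5 libraries. None of the 17 tested was past the threshold. Fcgr1, the high-affinity receptor for IgG, was at 7.05, 9.25 and 4.199 FPKM with RMC-6272 and 1.81 and 2.35 FPKM with sorafenib (log2 difference 1.30 ± 0.32 SE, adjusted p = 0.185). Trem2, a lipid receptor of tissue macrophages, was at 23.2, 6.73 and 3.28 FPKM with RMC-6272 and 2.09 and 0.4999 FPKM with sorafenib (log2 difference 2.11 ± 0.59 SE, adjusted p = 0.230). In both genes replicate 1 or 2 carried the highest value and replicate 3 was nearest to sorafenib. Timd4, a receptor of resident Kupffer cells for dying cells, had values in the other direction, 2.80, 4.65 and 0.945 FPKM with RMC-6272 and 9.66 and 7.88 FPKM with sorafenib (log2 difference -1.49 ± 0.57 SE, adjusted p = 0.439). Fcna, a ficolin made by liver macrophages and chosen after its values were seen, was at 4.74, 11.8 and 2.67 FPKM against 30.3 and 40.7 FPKM (log2 difference -2.48 ± 0.69 SE, adjusted p = 0.224).

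Dendritic cell markers summed to 13.2, 9.99 and 7.28 FPKM with RMC-6272, against 3.08 and 2.97 FPKM with sorafenib, and 7 of 10 were higher without overlap, against 16.1% of all genes. Of the 10, 7 were under 1 FPKM in all 5 libraries, among them the lineage markers Xcr1, Clec9a, Zbtb46 and Flt3, so this sum rests mainly on Itgax, Clec10a and Batf3. Itgax, Clec10a and Batf3 were under 1 FPKM in both sorafenib libraries and passed the filter only through RMC-6272. B and plasma cell markers summed to 62.3, 39.0 and 52.5 FPKM with RMC-6272 and 34.8 and 33.2 FPKM with sorafenib. Most of that sum was Sdc1, which hepatocytes also express, at 51.7, 36.3 and 49.8 FPKM with RMC-6272 and 32.04 and 30.02 FPKM with sorafenib. The B cell markers Ms4a1, Cd79a and Pax5 were under 1 FPKM throughout. T and NK cell markers summed to 9.06, 13.1 and 7.02 FPKM with RMC-6272 and 6.04 and 5.21 FPKM with sorafenib, with 6 of 15 higher without overlap, against 16.1% of all genes, and Cd3d, Cd3e, Cd3g and Cd8a under 1 FPKM in all 5. Neutrophil markers summed to 16.7, 8.28 and 6.79 FPKM with RMC-6272 and 5.33 and 1.77 FPKM with sorafenib, and cholangiocyte markers to 40.7, 31.9 and 37.1 FPKM with RMC-6272 and 40.4 and 19.04 FPKM with sorafenib. How far the numbers of these cells account for the class II values was not tested.

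Class I presentation genes, which act in most cells, had higher values with less difference between groups. Of 22 tested, 16 were higher in all RMC-6272 libraries, as were 16.1% of all genes, and none lower. Of the 22, 4 had an unadjusted p under 0.05, as did 5.18% of all genes in this direction, and none passed, with a median difference of 0.40. H2-D1, a classical class I heavy chain, was at 318, 261 and 164 FPKM with RMC-6272 and 108 and 89.4 FPKM with sorafenib (log2 difference 1.27 ± 0.48 SE, adjusted p = 0.429). H2-M3, which presents formylated peptides, was at 8.46, 7.999 and 4.12 FPKM and 2.20 and 2.22 FPKM (log2 difference 1.24 ± 0.42 SE, adjusted p = 0.327). Class I genes are similar in sequence and reads may be split among them. H2-M2, another class I gene outside this list, was at 29.7, 25.4 and 20.02 FPKM with RMC-6272 and 3.16 and 1.58 FPKM with sorafenib (log2 difference 2.98 ± 0.57 SE, adjusted p = 0.0569). Among 30 interferon response genes, 3 were higher without overlap, a smaller share than the 16.1% of all genes, and none lower, with a median of 0.22. Irf8, a transcription factor of myeloid cells, had the smallest p of these, at 12.5, 9.86 and 5.01 FPKM with RMC-6272 and 2.91 and 4.81 FPKM with sorafenib (log2 difference 1.01 ± 0.38 SE, adjusted p = 0.422). Cd274, which encodes PD-L1, was at 2.72, 3.81 and 2.003 FPKM with RMC-6272 and 0.922 and 1.49 FPKM with sorafenib (log2 difference 0.79 ± 0.45 SE, adjusted p = 0.674).

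Matrix and stellate cell genes also had higher values with RMC-6272, and none passed the threshold. Of 25 matrix genes, 17 were higher and none lower without overlap, where 16.1% of all genes were higher, with a median difference of 0.93. Of the 25, 9 had an unadjusted p under 0.05, as did 5.18% of all genes in this direction. Mmp12, the elastase of macrophages, was at 24.6, 12.2 and 13.6 FPKM with RMC-6272, against 1.94 and 1.13 FPKM with sorafenib and 4.07, 3.68 and 3.28 FPKM with vehicle (log2 difference 2.76 ± 0.53 SE, adjusted p = 0.0569). Col6a2, a chain of collagen VI, was at 4.70, 4.08 and 3.01 FPKM with RMC-6272 and 1.61 and 0.949 FPKM with sorafenib (log2 difference 1.11 ± 0.22 SE, adjusted p = 0.0667). Col6a1, its partner chain, was at 13.5, 11.3 and 7.34 FPKM and 3.26 and 2.17 FPKM (log2 difference 1.63 ± 0.45 SE, adjusted p = 0.225). Of 9 stellate and fibroblast markers tested, 7 were higher and none lower without overlap, against 16.1% higher over all genes, and the sum over all 12 listed was 126, 131 and 86.6 FPKM with RMC-6272, against 58.1 and 30.4 FPKM with sorafenib and 54.8, 55.7 and 91.2 FPKM with vehicle. Pdgfrb, the PDGF receptor of stellate cells and pericytes and a known target of sorafenib, was at 14.1, 8.99 and 6.13 FPKM with RMC-6272 and 2.71 and 2.12 FPKM with sorafenib (log2 difference 1.59 ± 0.39 SE, adjusted p = 0.185). Its vehicle libraries at 24 h had 2.68, 3.56 and 1.35 FPKM. Endothelial markers summed to 153, 62.6 and 64.0 FPKM with RMC-6272 and 44.4 and 46.7 FPKM with sorafenib, with RMC-6272 replicate 1 apart from the other two. The part of these cells in the matrix values was not tested.

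**Figure D3:**
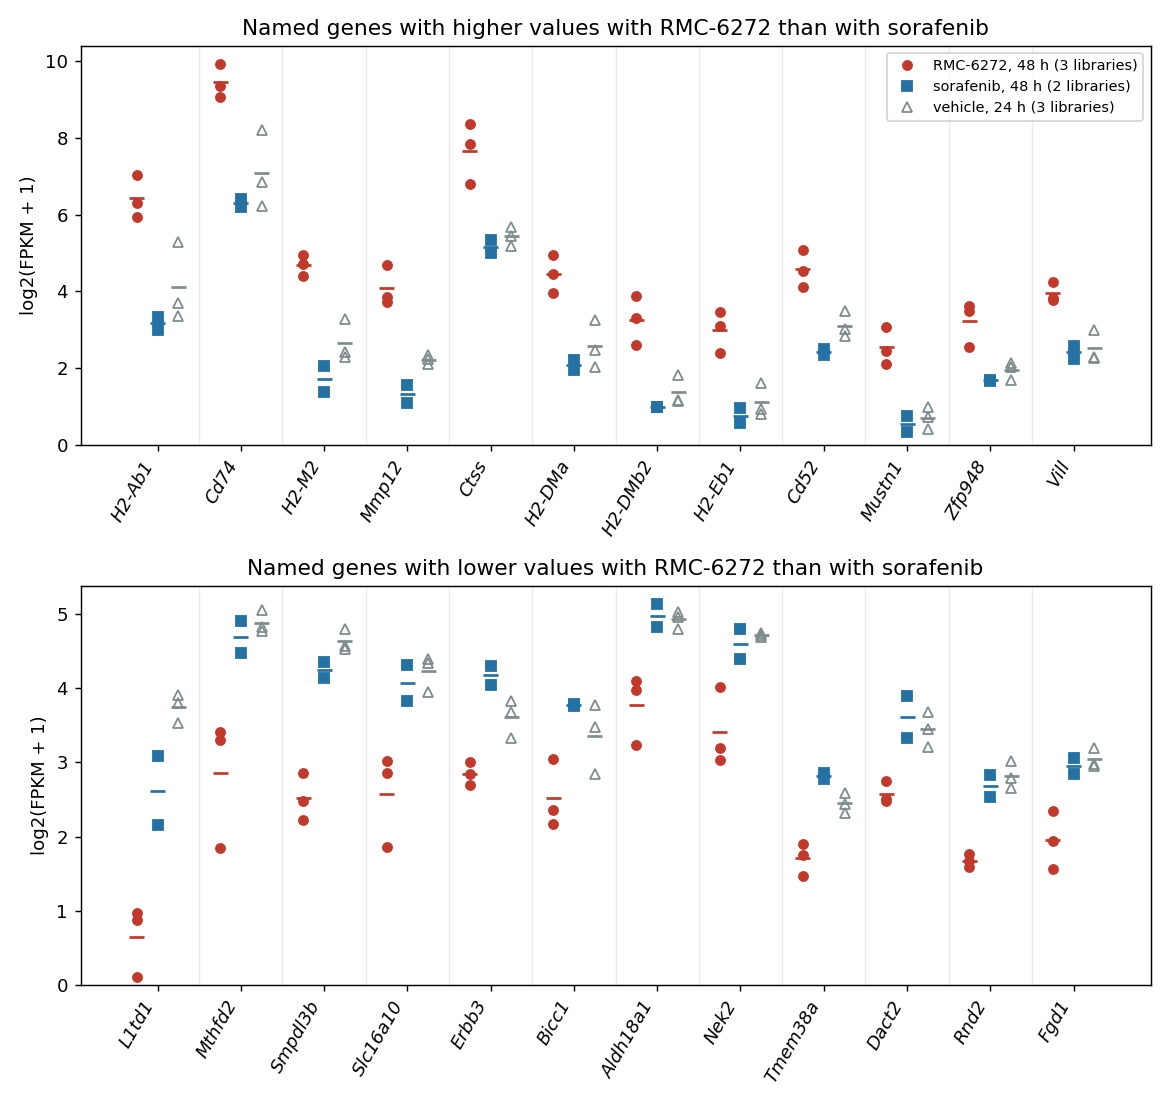
Levels as log2(FPKM + 1) of the 12 genes named as higher (top) and the 12 named as lower (bottom) with RMC-6272 than with sorafenib, with 1 point per library and a bar at each group's mean. Only H2-Ab1, Cd74, H2-DMa and Cd52 passed the threshold, and vehicle libraries at 24 h lie near the sorafenib libraries in most genes of the lower panel.

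Other genes at a mean of 5 FPKM or more, with no overlap and the smallest p, did not pass. Mustn1, a small nuclear protein of muscle and skeleton, was at 7.35, 4.49 and 3.28 FPKM with RMC-6272 and 0.691 and 0.252 FPKM with sorafenib (log2 difference 1.998 ± 0.42 SE, adjusted p = 0.0958). Zfp948, a zinc finger protein, had a log2 difference of 1.54 ± 0.31 SE and Vill, a relative of the actin binder villin, 1.54 ± 0.32 SE (adjusted p = 0.09002 and 0.0958). On the lower side, L1td1, an RNA-binding protein derived from a LINE-1 element, was at 0.0720, 0.958 and 0.836 FPKM with RMC-6272, against 3.47 and 7.46 FPKM with sorafenib (log2 difference -1.97 ± 0.50 SE, adjusted p = 0.199). Mustn1 passed the filter only through RMC-6272 and L1td1 only through sorafenib, so selection favoured the direction of each. Erbb3, the neuregulin receptor of the EGF receptor family, was at 6.15, 5.45 and 7.03 FPKM with RMC-6272 and 18.7 and 15.6 FPKM with sorafenib (log2 difference -1.33 ± 0.30 SE, adjusted p = 0.146). Tmem38a, a potassium channel of the endoplasmic reticulum, was at 2.36, 2.73 and 1.77 FPKM and 5.84 and 6.28 FPKM (log2 difference -1.11 ± 0.23 SE, adjusted p = 0.0958) and had the smallest adjusted p of the 12 genes named on this side. Smpdl3b, Bicc1, Dact2, Rnd2 and Fgd1 had log2 differences of -1.73, -1.25, -1.03, -1.01 and -1.003 with adjusted p between 0.213 and 0.219.

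Genes of amino acid supply, many of them targets of ATF4, the transcription factor that mTORC1 and amino acid shortage both engage, had lower values with RMC-6272. Of 28 tested, 20 were lower and none higher without overlap, where 24.0% of all genes were lower. Of the 28, 9 had an unadjusted p under 0.05, as did 3.76% of all genes in this direction. Slc7a3 was the member that passed, and the median difference was -0.51. Aldh18a1, which makes the precursor of proline, was at 8.41, 14.7 and 16.1 FPKM with RMC-6272, against 27.4 and 34.1 FPKM with sorafenib (log2 difference -1.21 ± 0.30 SE, adjusted p = 0.185). Psat1, an enzyme of serine synthesis, was at 76.8, 108 and 117 FPKM with RMC-6272 and 188 and 204 FPKM with sorafenib (log2 difference -0.98 ± 0.31 SE, adjusted p = 0.284). Slc38a2, the neutral amino acid carrier SNAT2, was at 11.3, 15.5 and 14.2 FPKM and 21.3 and 21.4 FPKM (log2 difference -0.62 ± 0.18 SE, adjusted p = 0.252). All 3 RMC-6272 libraries lay below both sorafenib libraries in each, and replicate 1 was the lowest. Mthfd2, the mitochondrial folate enzyme, was at 2.61, 8.90 and 9.64 FPKM with RMC-6272, against 21.4 and 29.1 FPKM with sorafenib and 26.3, 32.3 and 27.5 FPKM with vehicle (log2 difference -1.84 ± 0.50 SE, adjusted p = 0.219). Slc16a10, a carrier of aromatic amino acids, was at 2.63, 7.12 and 6.24 FPKM and 13.3 and 18.9 FPKM (log2 difference -1.49 ± 0.39 SE, adjusted p = 0.213).

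Components of the mTOR pathway itself had a median difference of -0.18, with 14 of 29 lower and 1 higher without overlap and none past the threshold, where 24.0% of all genes were lower and 16.1% higher. The sestrins, which pass amino acid and stress signals to mTORC1, were the members with the smallest p. Sesn2 was at 5.38, 4.98 and 3.70 FPKM with RMC-6272 and 7.89 and 9.37 FPKM with sorafenib (log2 difference -0.77 ± 0.29 SE, adjusted p = 0.415). Sesn3 was at 0.741, 1.01 and 1.43 FPKM and 2.41 and 2.10 FPKM (log2 difference -0.67 ± 0.19 SE, adjusted p = 0.240). Eif4ebp1, which encodes the translation inhibitor 4E-BP1, was at 55.4, 65.4 and 61.6 FPKM with RMC-6272 and 80.7 and 89.1 FPKM with sorafenib (log2 difference -0.48 ± 0.32 SE, adjusted p = 0.762). Mtor had a log2 difference of -0.07 ± 0.45 SE (adjusted p = 1.00). The 29 ribosome biogenesis genes had a median of -0.19 with 4 lower without overlap, and the 48 cytosolic ribosomal proteins a median of 0.20 with 4 higher, both smaller shares than those of all genes. The mouse Myc entry, which does not measure the human transgene, was at 5.76, 2.51 and 2.56 FPKM with RMC-6272 and 2.04 and 1.18 FPKM with sorafenib (log2 difference 0.77 ± 0.43 SE, adjusted p = 0.661).

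Cell cycle genes had lower values with RMC-6272, by small amounts that did not pass. Of 32 genes of G2/M and mitosis, 25 were lower and none higher without overlap, where 24.0% of all genes were lower, with a median of -0.55. Of the 32, 3 had an unadjusted p under 0.05, where 3.76% of all genes were lower at that p. By library the median deviation from sorafenib was -0.93, -0.36 and -0.32, so RMC-6272 replicate 1 was lower than the other two. Nek2, a kinase of the centrosome, was at 8.16, 7.17 and 15.1 FPKM with RMC-6272, against 19.97 and 26.9 FPKM with sorafenib and 25.8, 24.9 and 25.5 FPKM with vehicle (log2 difference -1.18 ± 0.31 SE, adjusted p = 0.218). Mki67, the proliferation antigen Ki-67, was at 12.8, 20.2 and 20.6 FPKM with RMC-6272 and 23.7 and 23.5 FPKM with sorafenib (log2 difference -0.41 ± 0.44 SE, adjusted p = 0.939). Of 32 genes of S phase, 18 were lower and none higher without overlap, against the same 24.0%, with a median of -0.40. Of 26 genes of nucleotide and one-carbon metabolism, 10 were lower and none higher without overlap, against 24.0% lower over all genes, with a median of -0.37.

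**Figure D4:**
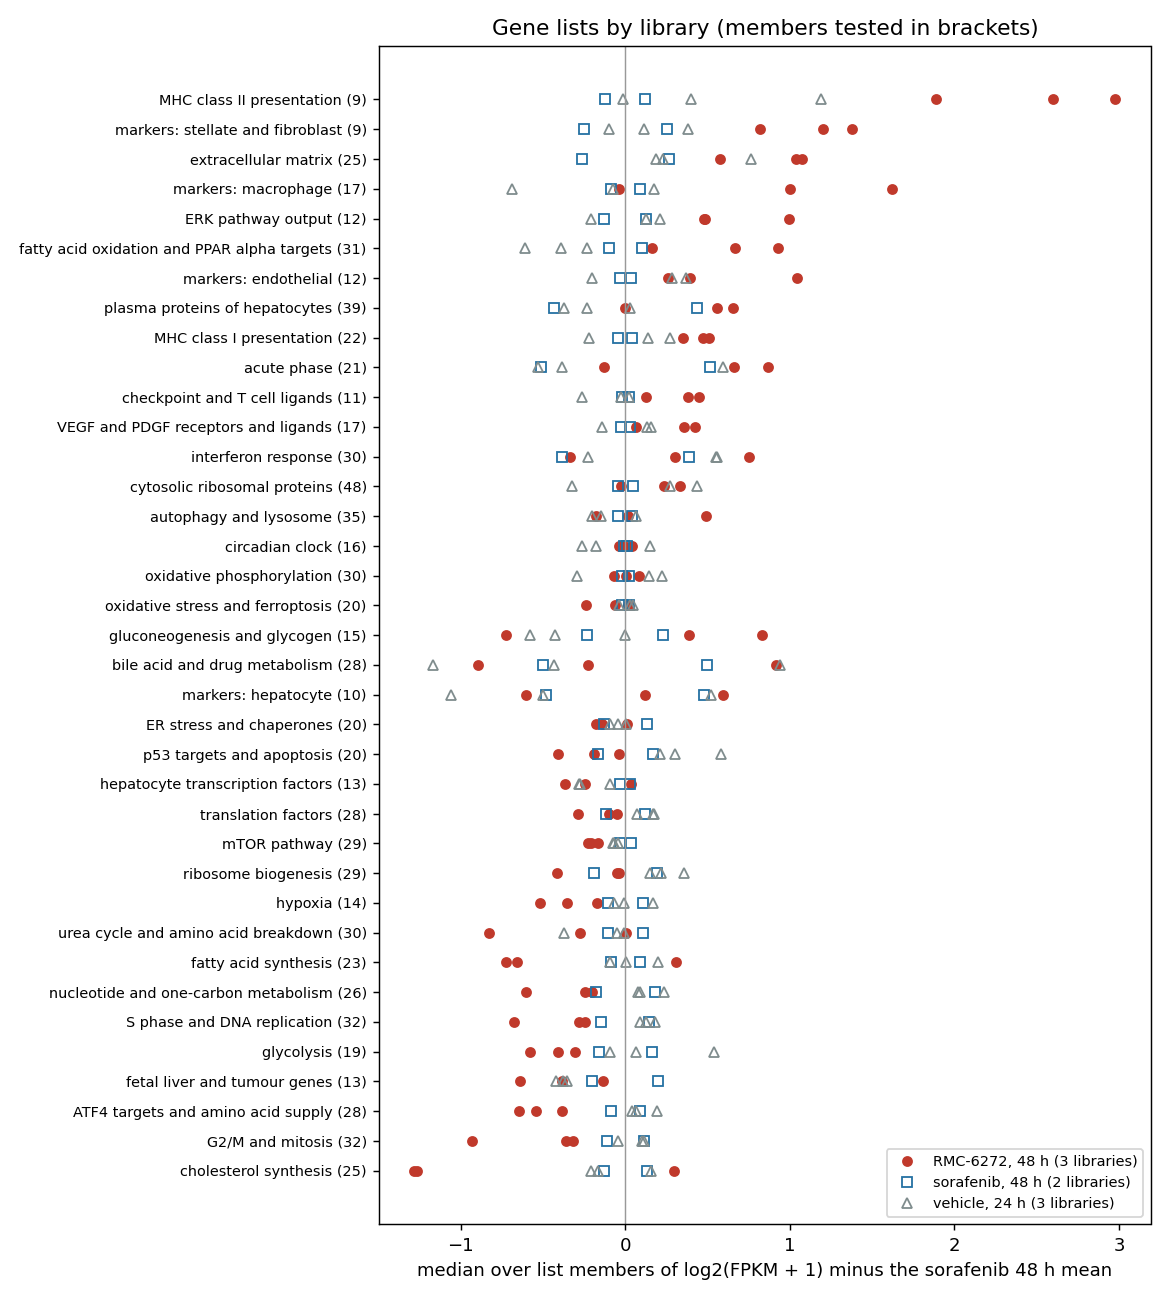
Median over the tested members of each list of log2(FPKM + 1) minus the sorafenib 48 h mean, with 1 point per library for RMC-6272 at 48 h, sorafenib at 48 h and vehicle at 24 h. The 3 RMC-6272 libraries lie at 2.98, 2.60 and 1.89 for MHC class II, and 1 of them lies apart from the other two for cholesterol synthesis and fatty acid synthesis.

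Lipid genes separated the RMC-6272 libraries from each other. For 25 genes of cholesterol synthesis, the median deviation from sorafenib was -1.27, -1.28 and 0.29 in RMC-6272 replicates 1, 2 and 3, so replicate 3 lay above sorafenib and the other two well below it. Idi1, an isomerase of the pathway, was at 2.21, 2.26 and 13.2 FPKM with RMC-6272 and 14.3 and 12.8 FPKM with sorafenib (log2 difference -1.46 ± 0.46 SE, adjusted p = 0.296). None of the 25 passed. Without RMC-6272 replicate 3, the library on the other side, 3 of the 25 passed, as did 41 of all 12016 genes. Without RMC-6272 replicate 1 or replicate 2, 0 genes passed. Fatty acid synthesis genes showed the same split, at -0.72, -0.66 and 0.31. Red cell precursor genes, whose sum was almost all Hba-a1, an alpha globin gene, had a summed level in replicate 3 of 335 FPKM against 12.4 and 7.90 FPKM in the other RMC-6272 libraries, 74.0 and 53.9 FPKM with sorafenib and 170.3, 314 and 34.8 FPKM with vehicle. The part of blood in this library's values was not tested.

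Of 31 genes of fatty acid oxidation and other PPAR alpha targets, 17 were higher and none lower without overlap, where 16.1% of all genes were higher, with a median of 0.62 and none past the threshold. Acadl, a dehydrogenase of mitochondrial beta oxidation, was at 181, 128 and 162 FPKM with RMC-6272 and 86.0 and 70.3 FPKM with sorafenib (log2 difference 0.99 ± 0.39 SE, adjusted p = 0.445). Glycolysis genes had values on the other side, 11 of 19 lower and 1 higher without overlap, where 24.0% of all genes were lower, with a median of -0.47. Slc16a3, the lactate exporter MCT4, was at 0.478, 2.49 and 1.04 FPKM with RMC-6272, against 19.5 and 18.1 FPKM with sorafenib (log2 difference -3.18 ± 1.06 SE, adjusted p = 0.325). Hk2, the hexokinase of growing and tumour cells, was at 3.01, 6.35 and 6.10 FPKM and 7.76 and 10.3 FPKM (log2 difference -0.74 ± 0.33 SE, adjusted p = 0.513). In both genes every RMC-6272 library was below both sorafenib libraries.

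The treatments overlapped in the summed level of hepatocyte markers. These markers, which check the labelled tissue, summed to 10916, 5901 and 11934 FPKM with RMC-6272. The sum was 7137 and 3227 FPKM with sorafenib and 5964, 4165 and 3162 FPKM with vehicle. It rests mainly on Alb, Apoa1 and Ttr. Tat and Tdo2 were under 1 FPKM in RMC-6272 replicate 2 and vehicle replicate 3, and Tat also in RMC-6272 replicate 1. Alb, which encodes albumin, had a log2 difference of 1.09 ± 0.80 SE (adjusted p = 0.809) and Afp, the fetal counterpart and tumour marker, 0.36 ± 0.64 SE (adjusted p = 0.990). Of 39 plasma protein genes, 8 were higher and none lower without overlap, a share near the 16.1% of all genes that were higher, with a median of 0.45. Of 13 fetal liver and tumour genes tested, 2 were higher and 4 lower without overlap, with a median of -0.49. These shares were near those of all genes, 16.1% higher and 24.0% lower. Gpc3, one of the 2 that were higher, a glypican of fetal liver and hepatocellular carcinoma, was at 21.4, 40.04 and 23.8 FPKM with RMC-6272, against 14.2 and 2.36 FPKM with sorafenib (log2 difference 1.99 ± 0.66 SE, adjusted p = 0.320), with the sorafenib libraries far apart from each other. Genes induced by ERK signalling, which sorafenib targets through RAF, were higher without overlap in 7 of 12 and lower in none, where 16.1% of all genes were higher, with a median of 0.64. Spred1, a feedback inhibitor of that pathway, was at 2.61, 1.66 and 1.33 FPKM with RMC-6272 and 0.726 and 0.556 FPKM with sorafenib (log2 difference 0.78 ± 0.30 SE, adjusted p = 0.440). Spred1 passed the filter only through RMC-6272, so selection favoured this direction for it. Dusp6, the ERK phosphatase that reports its activity, was at 16.5, 8.82 and 8.15 FPKM and 5.57 and 3.91 FPKM (log2 difference 1.04 ± 0.59 SE, adjusted p = 0.672). Its vehicle libraries at 24 h had 4.76, 4.23 and 3.74 FPKM.

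Further lists had no member past the threshold. The median was -0.33 for hypoxia, -0.35 for the urea cycle and amino acid breakdown, -0.14 for translation factors, -0.14 for hepatocyte transcription factors and -0.13 for p53 targets and apoptosis. It was -0.12 for endoplasmic reticulum stress and chaperones, -0.07 for gluconeogenesis and glycogen, -0.06 for oxidative stress and 0.12 for the circadian clock. Autophagy and lysosome genes had a median of 0.17, ligands and receptors of the VEGF and PDGF families 0.31 and checkpoint and T cell ligands 0.33.

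Both treatments were also collected at 24 h (3 RMC-6272 and 2 sorafenib libraries), so whether the difference between them depends on time was tested as an interaction in the same fit. No gene passed (0% of 12016), 366 had an unadjusted p under 0.05 (3.05%), and the adjusted p of each gene named here was 0.9998 in limma. A p that misses the threshold does not show that the differences were alike. The class II genes had a median difference of 2.501 at 48 h and 1.87 at 24 h, all 9 higher without overlap at both times. Such separation was common in other lists at 24 h. All 32 G2/M and mitosis genes were lower, and 30 of 39 plasma protein genes were higher and none lower. The share over all genes at 24 h is not given here. For G2/M and mitosis, the median was -0.55 at 48 h and -1.67 at 24 h, and 17 of the 32 genes had an unadjusted p under 0.05 for the change between times. Aurka, the mitotic kinase Aurora A, had a difference of -0.40 at 48 h and -1.83 at 24 h, a change of 1.43 ± 0.36 SE (unadjusted p = 0.00103). Stmn1, which destabilises microtubules, changed by 1.68 ± 0.46 SE (unadjusted p = 0.00184), and Nrm, Tk1 and Aurkb by 1.37, 1.63 and 1.54.

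Acute phase genes, which hepatocytes switch on in inflammation, had a median difference of 0.35 at 48 h and 2.40 at 24 h, with 7 of 21 at an unadjusted p under 0.05 for the change, as were 3.05% of all genes. Orm1, an acute phase plasma protein, had a difference of -0.84 at 48 h and 7.12 at 24 h, a change of -7.96 ± 1.67 SE (unadjusted p = 0.000182). Its level at 48 h was 16.0, 2.63 and 7.18 FPKM with RMC-6272 and 43.6 and 3.56 FPKM with sorafenib, so the groups overlapped. At 24 h it was 114, 1117 and 59.3 FPKM with RMC-6272, against 0.587 and 0.284 FPKM with sorafenib. Cp, Clu, Adh1 and Wfdc21, the other genes with the smallest p on this side, changed by -3.37, -3.20, -3.85 and -6.12. Bile acid and drug metabolism genes had a median of -0.07 at 48 h and 1.79 at 24 h, with 3 of 28 at an unadjusted p under 0.05 for the change, against the same 3.05% of all genes. The 24 h values are descriptions and were not tested on their own.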

How the data were processed

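RNA was sequenced from frozen liver tumour tissue. FPKM per gene are used as deposited by the authors, who aligned reads with STAR 2.5 to mm9 and counted with HTSeq 0.6.1, per the submitters' processing notes. The annotation and use of strand are not given in the sources used here. Of 54532 entries, 27 whose names had become dates and 102 sharing a symbol were left out. Gene identifiers were shifted against names in the first 1025 rows, so names were used.

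In the 5 libraries 98.5 to 98.7% of low values were whole reads within 0.02 of a read, up to 20 reads. This gave their read totals, which cover counting error only. In the doxycycline and RMC-4627 libraries, which entered the fit, 17.4 to 33.7% of low values were whole reads. No read total was recovered for them. Within both groups, library pairs differed by a chi-square of 70.9 to 164 per gene, where a library deposited again would give about 1.

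Values were log2(FPKM + 1), where the added 1 understates differences of low genes. All tests used limma 3.58.1 (lmFit, eBayes with trend) in R 4.3.3, with 1 mean per group over all 24 libraries, two-sided, and adjusted p (Benjamini-Hochberg) over the 12016 genes. The script was checked on simulated data. Alternatives were another pseudocount (0.1), no filter, 2 scalings, 2 smaller fits, blocks for description code and replicate number, no trend, and each library left out.

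Genes were named by rule. In each direction up to 12 were named, past the threshold, without overlap between groups and at a mean of at least 5 FPKM in the higher group. Places left were filled by the smallest unadjusted p among genes differing by at least 1 on the log2 scale. Up to 4 members of each list and 8 fixed genes were added. For the change between times, 5 genes each way were named by p. The rule passes over unnamed gene models, pseudogenes, segments of antigen receptors and Mup genes. The 44 lists hold 951 genes, of which 838 were tested. The members and lists were chosen with earlier results of these data known.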

Additional observations from a re-analysis of the deposited data

Results flagged for a closer look

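Among the named genes, 4 had all RMC-6272 libraries on one side of both sorafenib libraries at 48 h and on the other side at 24 h. Of all genes tested, 119 (0.99%) did so. The difference itself was tested as the interaction of treatment and time in limma, and no gene passed, with adjusted p = 0.9998 for each of the 4. Cyp2a5, a cytochrome P450 of liver drug metabolism, was at 0.717, 0.255 and 0.289 FPKM with RMC-6272, against 14.1 and 4.94 FPKM with sorafenib at 48 h. It was under 1 FPKM in every RMC-6272 library at 48 h and passed the filter only through sorafenib. At 24 h it was at 0.688, 12.5 and 0.957 FPKM with RMC-6272, against 0.439 and 0.464 FPKM with sorafenib. The change in log2 difference was -4.04 (unadjusted p = 0.0124), and its level spread widely among the vehicle libraries too, with 16.2, 1.64 and 0.0919 FPKM. Atg14, a subunit of the autophagy lipid kinase complex, changed by -0.820 (unadjusted p = 0.00271), and Atg13, a subunit of the ULK1 complex that mTORC1 phosphorylates, by -0.628 (unadjusted p = 0.0898). Atg14 was at 3.13, 2.86 and 2.90 FPKM with RMC-6272 and 4.53 and 3.70 FPKM with sorafenib at 48 h. At 24 h it was at 6.77, 4.49 and 5.25 FPKM with RMC-6272 and 3.69 and 3.69 FPKM with sorafenib. Icosl, the ligand of the T cell receptor ICOS, changed by 0.698 (unadjusted p = 0.0250).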

How the results depend on the processing

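The count of 11 genes past the threshold at 48 h depended on the processing. It was 3 with a pseudocount of 0.1, 2 with median-ratio scaling, 1 in the fit of 20 libraries, 0 in the fit of the compared groups alone, 1 with the description code as a random block and 3 without the eBayes trend. At an unadjusted p under 0.05, the fit of the compared groups alone had 1887 genes and the main setting 1074. Leaving out each library in turn gave 0 to 41 genes. The unadjusted counts were 508 and 951 without RMC-6272 replicates 1 and 2, and 738 and 424 without sorafenib replicates 1 and 2. The 41 genes without RMC-6272 replicate 3 held all 11. Without a filter, 11 of 33042 entries passed, 4 higher and 7 lower, and 3 of them were among the main 11. Quantile normalization gave 13, 9 higher and 4 lower, with all 11 among them, where median-ratio scaling gave 2 higher and none lower. The number of list members past the threshold, 4 in the main setting, was 1 with a pseudocount of 0.1, without a filter, with median-ratio scaling, with the replicate block or without the trend. It was 0 in the fit of 20 libraries, in the fit of the compared groups alone and with the code block, and 0 to 13 with each library left out. For the change between 48 h and 24 h, 4 entries passed without a filter and 0 in the other settings. All 9 class II genes tested kept an unadjusted p under 0.05 in the 13 settings with the filter. Of 207 named genes, 13 changed sign in some setting, none of them among the 11. The replicate block gave 3 genes. The deviations of same-numbered libraries correlated over genes at 0.314 and 0.519, and those of RMC-6272 replicate 3 and sorafenib replicate 1 at 0.189. With 2 sorafenib libraries each value recurs with the opposite sign for the other library, so these values cannot pair the libraries. The cause of these changes was not tested. With 3 and 2 libraries the median SE of a log2 difference was 0.305, which limits what differences can be seen.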
